A study of Mus musculus with 2 samples.

Results

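The aquaporins are the family of membrane channels that carry water, and in some members glycerol, across cell membranes. Of the 35529 genes in the table, 8 aquaporin genes were taken by symbol: Aqp1, Aqp3, Aqp4, Aqp5, Aqp7, Aqp8, Aqp9 and Aqp11. The comparison was between adenomas from the colon of C57BL/6 wild-type mice given azoxymethane, a colon carcinogen, with dextran sodium sulfate, which injures the colonic lining (AOM+DSS), and normal colon from C57BL/6 wild-type mice that received neither agent. Ages, doses and times were not given in the labels. The RNA of 6 individuals was pooled in each group and sequenced as 1 library, called the adenoma pool and the control pool here. With 1 library in each group there is no replicate check and no test between the groups, and the 95% intervals given with folds reflect only the counting of reads. In bulk tissue, fewer cells of a type and less RNA per cell cannot be told apart.

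Aquaporins assemble as tetramers in which each subunit holds its own pore, and water follows the salt that epithelial cells move. In the colon they are known for the last step of water recovery from the stool, which differentiated surface colonocytes carry out. Family members that also pass glycerol are called aquaglyceroporins, and among the 8 these are Aqp3, Aqp7 and Aqp9. Aqp1, Aqp4, Aqp5 and Aqp8 are mainly water channels, Aqp8 also passing ammonia and hydrogen peroxide, and Aqp11 is a divergent member found on intracellular membranes.

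Levels are in RPKM, reads scaled to the length of the gene and the size of the library, which allows genes to be compared within a library. Log2 fold changes are log2((adenoma RPKM + 1)/(control RPKM + 1)), and a gene was called when it reached 1 RPKM in 1 pool or both and differed by at least 2-fold on that scale. Folds given without the word log2 are ratios of RPKM with no pseudocount. The read totals behind the values came out at 33174626 for the adenoma pool and 29548883 for the control pool. Over the 16517 genes that reached 1 RPKM in 1 pool or both, 14.0% were called higher and 11.0% lower, and the median log2 fold change was -0.02. When both libraries were rescaled to equal sums of RPKM, 1274 genes were higher and 3347 lower, in place of 2316 and 1809, and the median of all genes moved to -0.35. Taken over all mRNA genes, the adenoma pool had higher values for short transcripts and lower values for long ones, with a median log2 fold change of 0.85 in the shortest 10% of mRNA transcripts and -0.78 in the longest 10%, so values adjusted for this trend are also given. The distal homeobox gene Hoxb13 stood at 262 RPKM in the adenoma pool and 315 RPKM in the control pool. Of 6 genes of distal colon position, 1 was called higher (Hoxd12) and 0 lower. The adhesion gene Epcam, a marker of epithelium as a whole, stood at 646 and 752 RPKM.

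Windows of 300 bases around the transcription start, from 250 bases before it to 50 after, are shown for the 3 expressed aquaporins whose promoters RefSeq gives in the table used here. They are shown because these genes were all lower in the adenoma pool by the deposited values, but by very different amounts. The windows are on build GRCm38.p6 and run 5′ to 3′ on the strand of the gene: Aqp8 at chr7:123462044-123462343 (plus strand), Aqp1 at chr6:55336049-55336348 (plus strand) and Aqp11 at chr7:97738198-97738497 (minus strand). In the GENCODE M21 annotation used further below, Aqp1 starts at 55336432, past the end of its window. Positions given for Aqp1 therefore hold for the RefSeq start alone. Capitals mark any match to the 7 motifs listed after the sequences.

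Aqp8: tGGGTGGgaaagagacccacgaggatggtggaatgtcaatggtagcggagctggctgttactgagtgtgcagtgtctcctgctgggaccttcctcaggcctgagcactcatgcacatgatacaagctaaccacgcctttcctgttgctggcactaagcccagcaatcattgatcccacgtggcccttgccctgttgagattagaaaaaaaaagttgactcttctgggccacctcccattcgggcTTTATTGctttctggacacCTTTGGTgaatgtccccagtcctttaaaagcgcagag

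Aqp1: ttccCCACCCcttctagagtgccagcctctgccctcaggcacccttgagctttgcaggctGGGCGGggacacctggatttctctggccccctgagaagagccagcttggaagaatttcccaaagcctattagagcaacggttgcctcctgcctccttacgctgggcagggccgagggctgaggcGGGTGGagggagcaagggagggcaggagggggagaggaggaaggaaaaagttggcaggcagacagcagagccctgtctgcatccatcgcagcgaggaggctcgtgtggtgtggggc

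Aqp11: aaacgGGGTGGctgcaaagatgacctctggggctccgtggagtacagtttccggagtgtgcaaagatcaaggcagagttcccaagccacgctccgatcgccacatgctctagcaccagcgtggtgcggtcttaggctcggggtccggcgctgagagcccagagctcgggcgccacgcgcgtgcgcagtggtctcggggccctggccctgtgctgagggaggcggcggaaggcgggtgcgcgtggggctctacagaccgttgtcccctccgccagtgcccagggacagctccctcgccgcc

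The motifs, searched on both strands, were the TATA box (TATAAA), the GC box (GGGCGG), and the sites of TCF and LEF factors (CTTTGNT), CDX factors (TTTATNG), of GATA factors (AGATAA), HNF4 receptors (CAAAGTNCA) and Kruppel-like factors (CCACCC). In these letters N stands for any base. The Aqp8 window held a CDX match that starts at position -6 from the transcription start. At position 14 it held CTTTGGT, which matches the loose TCF and LEF letters with a G at N. It is not shown to be a site of these factors. The CDX letters and the TCF and LEF letters occur in 10.9% and 18.6% of 32851 promoter windows of the same length. The Aqp1 window held a GC box match at position -190, found in 35.7% of all windows, and the windows of Aqp8, Aqp1 and Aqp11 each held a CCACCC match, found in 31.5%. No motif overlapped another, and neither the TATA box, GATA nor HNF4 letters occurred in the 3 windows. The Aqp8 window had 52.0% G and C and 6 CpG pairs, against a median of 52.7% and 7.0 over all windows. The Aqp11 window was richer, with 68.0% G and C and 27 CpG pairs. A match is a run of letters, and no binding was measured in these samples.

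The family divided into 4 genes above 1 RPKM in at least 1 pool (Aqp8, Aqp4, Aqp1 and Aqp11) and 4 genes below 1 RPKM in both pools (Aqp5, Aqp3, Aqp9 and Aqp7). All of the first 4 were lower in the adenoma pool by the deposited values, and of these 2 were called lower and 0 higher, where 11.0% and 14.0% of all genes were called. Their median log2 fold change was -1.19, and it was -0.89 after adjustment for transcript length, against -0.02 and -0.19 over all genes. After that adjustment the same 2 genes were called lower and 0 higher, where 11.0% and 5.12% of all genes with a known length were. The 4 genes near zero had log2 fold changes between -0.11 and 0.34, a scale on which such low values can hardly move. With 4 members past the filter, counts and medians describe these genes and nothing wider.

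**Figure D1:**
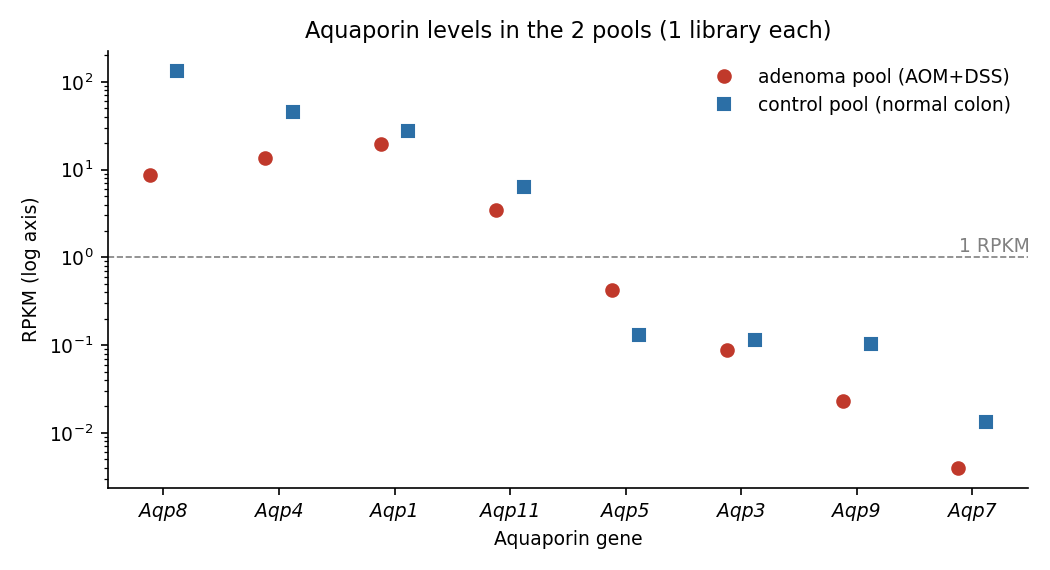
RPKM of each of the 8 aquaporins (log axis) in the adenoma pool (circles) and the control pool (squares), 1 library each, ordered by the control level. Aqp8, Aqp4, Aqp1 and Aqp11 lie above 1 RPKM and are lower in the adenoma pool, with the widest gap at Aqp8 (8.64 against 134 RPKM), while the other 4 lie below 1 RPKM in both pools.

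Aqp8, the water channel of the apical membrane of surface colonocytes, was the most abundant aquaporin of the control pool and had the largest difference. It stood at 8.64 RPKM in the adenoma pool, against 134 RPKM in the control pool. It was 15.5-fold lower in the adenoma pool (14.1 to 17.2), from about 426 reads in the adenoma pool and 5896 reads in the control pool. Its log2 fold change was -3.81, and -4.32 after adjustment for transcript length. Of the 16517 genes past the filter, 5 had a lower log2 fold change. Among the 811 mRNA genes whose control level was within 2-fold of that of Aqp8, the median log2 fold change was 0.12, and 0.123% had a lower value than Aqp8. By rank of RPKM among all genes of its own library, Aqp8 was number 7229 in the adenoma pool and number 685 in the control pool.

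Aqp4, a water channel best known from astrocyte endfeet and also present on the basolateral membrane of intestinal epithelium, was the other aquaporin called lower. Its level was 13.7 RPKM in the adenoma pool, against 45.2 RPKM in the control pool. It was 3.30-fold lower in the adenoma pool (3.15 to 3.46), with a log2 fold change of -1.65, or -1.24 after length adjustment. Its coding transcripts differ widely in length, and with the shortest of them in place of the longest the counting interval widened to 2.81 to 3.89. The length-adjusted value rests on the longest, of 5054 bases, and was not computed for the shortest, of 453 bases. Of all genes past the filter, 2.35% had a lower log2 fold change, as did 5.01% of the 2256 mRNA genes at a similar control level.

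Aqp1, the water channel of red cells and of capillary endothelium, was lower by less than the 2-fold threshold. It stood at 19.5 RPKM in the adenoma pool, against 27.5 RPKM in the control pool. It was 1.41-fold lower (1.32 to 1.51), with a log2 fold change of -0.48, and -0.53 after length adjustment. This direction depended on the scale: with libraries set to equal summed RPKM of the epithelial markers described below, its log2 fold change was 0.09. That sum rests mostly on the keratin genes Krt8 and Krt19. Aqp1 had the smallest difference of the 4 expressed members on the deposited scale and was the most abundant aquaporin of the adenoma pool.

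Aqp11, whose loss in mice is known to cause cystic kidneys, was the lowest of the 4 expressed members. Its level was 3.44 RPKM in the adenoma pool, against 6.32 RPKM in the control pool. It was 1.84-fold lower (1.63 to 2.08), with a log2 fold change of -0.72, or -0.51 after length adjustment. It missed the 2-fold threshold as deposited and passed it, at -1.05, with both libraries rescaled to equal sums, where the median of all genes was itself -0.35.

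The order of the levels therefore differed between the pools. In the adenoma pool it ran Aqp1, Aqp4, Aqp8 and Aqp11, and in the control pool Aqp8, Aqp4, Aqp1 and Aqp11. The RPKM of all 8 genes summed to 45.8 in the adenoma pool and to 214 in the control pool, 4.66-fold lower in the adenoma pool. Aqp8 made up 18.9% of that sum in the adenoma pool and 62.8% in the control pool. Aqp4 made up 29.9% and 21.2%, and Aqp1 42.6% and 12.9%. Without Aqp8 the sums were 37.2 and 79.4 RPKM, 2.14-fold lower in the adenoma pool. The level of Aqp8 divided by that of Aqp1, a ratio that no scaling of the libraries can move, was 0.443 in the adenoma pool and 4.87 in the control pool. The level of Aqp4 divided by that of Aqp1 was 0.702 in the adenoma pool and 1.64 in the control pool. Neither ratio is adjusted for transcript length. With that adjustment the log2 fold changes were -4.32 for Aqp8, -1.24 for Aqp4 and -0.53 for Aqp1. As deposited they were -3.81, -1.65 and -0.48.

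**Figure D2:**
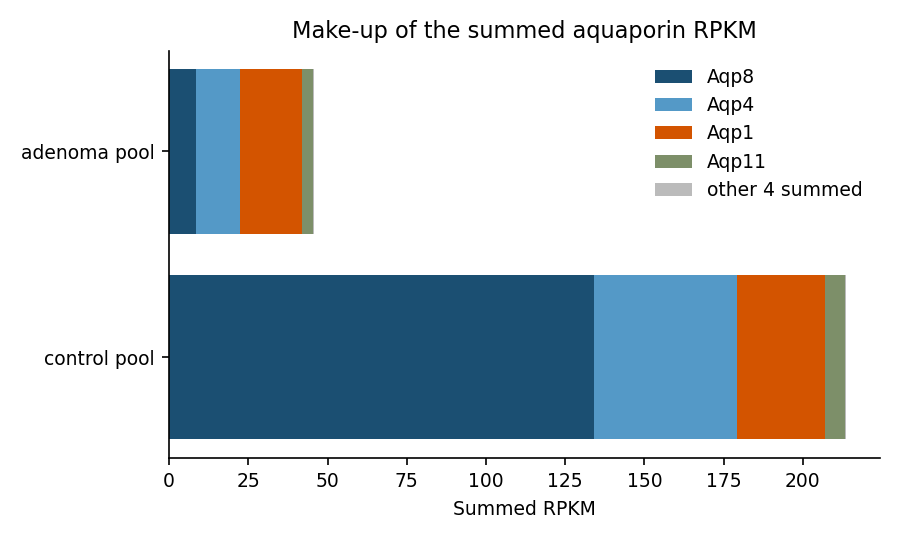
Summed RPKM of the 8 aquaporins in the adenoma pool (top) and the control pool (bottom), divided by gene. The adenoma bar ends at 45.8 RPKM with Aqp1 as its largest part (42.6%), and the control bar ends at 214 RPKM with Aqp8 as its largest part (62.8%).

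The other 4 members were near the limit of what these libraries could detect. Aqp5, the channel of salivary and other exocrine glands and of pyloric stomach glands, was the only one of the 8 with a higher value in the adenoma pool, at 0.428 RPKM against 0.131 RPKM in the control pool. That is 3.27-fold higher (1.37 to 8.96), from about 25.5 reads in the adenoma pool and 6.95 reads in the control pool. With the shortest coding transcript the interval ran from 0.904 to 16.9 and no longer excluded an equal level. Aqp3, the aquaglyceroporin of the basolateral membrane of colonic and other epithelia, stood at 0.0872 RPKM in the adenoma pool and 0.115 RPKM in the control pool, about 5.11 and 6.01 reads. No difference in Aqp3 was detectable at this depth, since the ratio of 0.757 had an interval from 0.185 to 2.96.

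Aqp9, the aquaglyceroporin of liver and leukocytes, had about 2 reads in the adenoma pool and 8.01 reads in the control pool (0.0228 and 0.102 RPKM), a ratio of 0.223 with an interval from 0.0231 to 1.12. Aqp7, the glycerol channel of fat cells, was at 0.00398 RPKM in the adenoma pool and 0.0134 RPKM in the control pool. Both values of Aqp7 lie under the level that 3 reads would give, 0.0358 RPKM in the adenoma pool and 0.0402 RPKM in the control pool, so no fold is given. Fractions of a read occur in the table, and Aqp7 had about 0.334 reads in the adenoma pool.

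The rest of the family was as low. Aqp12, a channel of pancreatic acinar cells, had about 6.00 reads in each pool, at 0.166 RPKM in the adenoma pool and 0.187 RPKM in the control pool. Aqp2, the vasopressin-regulated channel of the kidney collecting duct, had about 6.01 reads in the adenoma pool (0.128 RPKM) and was at 0 in the control pool, whose level for 3 reads is 0.0715 RPKM. Aqp6, an intracellular channel of the kidney, was at 0.00732 and 0.0164 RPKM, under the level of 3 reads in both pools. Mip, the lens aquaporin, was listed at 0 in both pools.

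**Figure D3:**
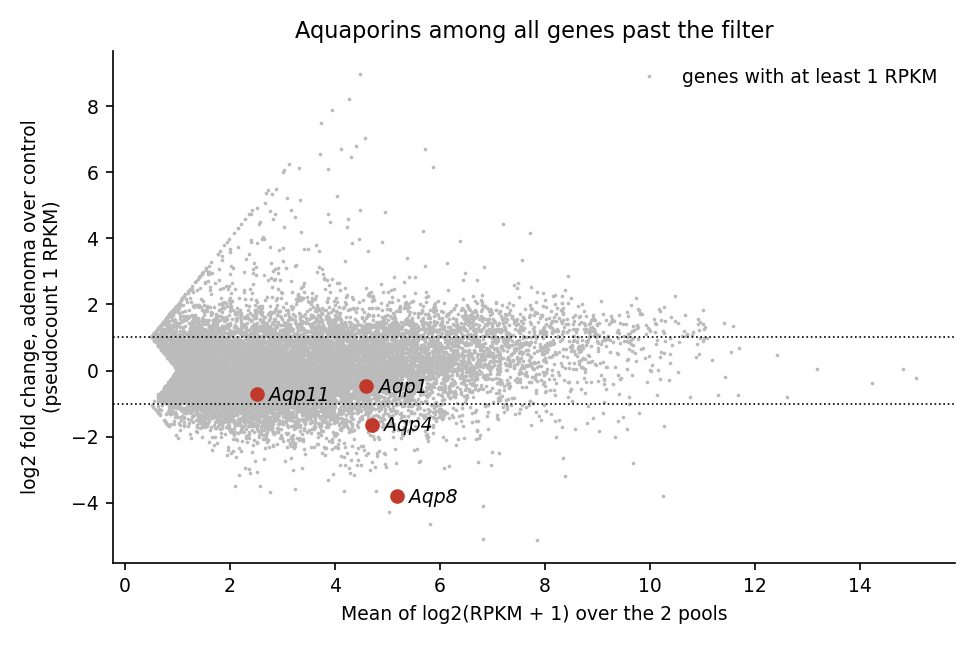
Log2 fold change (adenoma over control, pseudocount 1 RPKM) against the mean of log2(RPKM + 1) over both pools for the 16517 genes past the filter of 1 RPKM. Dotted lines mark 2-fold, and the 4 expressed aquaporins are labelled: Aqp8 at -3.81 lies at the lower edge of the cloud, Aqp4 at -1.65 below the lower line, and Aqp11 and Aqp1 inside both lines.

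In the GENCODE M21 annotation of build GRCm38, which is not given as the authors' annotation, the members lie on 6 chromosomes. Aqp8 occupies 123462291 to 123468004 on the plus strand of chromosome 7, and its longest coding transcript has 6 exons. Aqp11 is on the same chromosome at 97724006 to 97738289, minus strand, with 3 exons. Aqp1 is at 55336432 to 55348555 on chromosome 6, plus strand, with 4 exons, and Aqp4 is on chromosome 18. Aqp3 (41092722 to 41098183) and Aqp7 (41033074 to 41048139) are neighbours on the minus strand of chromosome 4. Aqp5 (99590782 to 99594829) lies between Aqp2 and Aqp6 on chromosome 15, and Aqp9 is at 71110659 to 71168682 on the minus strand of chromosome 9. No annotated exon of another gene overlapped an exon of the 8 members.

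The nearest protein-coding genes did not share the values of Aqp8. Lcmt1, 31933 bases before it, was at 29.1 RPKM in the adenoma pool and 19.2 RPKM in the control pool, and Zkscan2, 7380 bases after it, was at 0 and 0.0148 RPKM. Arhgap17, the next gene before Lcmt1, was called lower, at 3.36 RPKM in the adenoma pool and 9.09 RPKM in the control pool. Clns1a, 3210 bases from Aqp11, stood at 17.5 and 15.4 RPKM. In the cluster on chromosome 15, Aqp2, Aqp5 and Aqp6 were all below 1 RPKM in both pools, as were the neighbours Aqp3 and Aqp7 on chromosome 4.

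Water moves through these channels along gradients made by ion transport, and genes of salt and water absorption and secretion were lower alongside Aqp8 and Aqp4. Of 36 listed genes 34 passed the filter, of which 24 were called lower and 0 higher, and their median log2 fold change was -1.58 (-1.34 length-adjusted). Over all genes past the filter 11.0% were called lower and 14.0% higher, or 11.0% and 5.12% after length adjustment. Counts in this list and in those that follow are to be read beside these shares. The chloride-bicarbonate exchanger Slc26a3 stood at 6.46 RPKM in the adenoma pool and 143 RPKM in the control pool, and the colonic proton pump subunit Atp12a at 8.83 and 73.8 RPKM. The sulfate transporter Slc26a2 was at 4.08 RPKM in the adenoma pool and 62.7 RPKM in the control pool. The most abundant gene of the list, the peptide hormone guanylin (Guca2a), was at 255 and 768 RPKM. Aqp8, with a log2 fold change of -3.81, lay between Slc26a3 at -4.27 and Slc26a2 at -3.65.

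Carbonic anhydrases supply the bicarbonate and protons for that exchange. Of 13 genes 10 passed the filter, 5 were called lower and 0 higher, and the median log2 fold change was -0.92 (-1.17 length-adjusted). Car4, bound to the apical membrane, was at 18.4 RPKM in the adenoma pool and 659 RPKM in the control pool, and the cytosolic Car2, the most abundant, at 128 and 816 RPKM. Car3 was lower as well, at 0.373 RPKM in the adenoma pool and 6.23 RPKM in the control pool.

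Genes that anchor or regulate water channels had 13 of 16 past the filter, 7 called lower, 0 higher and a median log2 fold change of -1.05. After length adjustment 4 were lower and the median was -0.77. The largest differences were in the adenylyl cyclase Adcy6 (9.01 RPKM in the adenoma pool, 41.4 RPKM in the control pool), in dystroglycan, Dag1, part of the complex that holds Aqp4 at the membrane (12.6 and 46.0 RPKM), and in Vipr1, a receptor for vasoactive intestinal peptide (18.3 and 62.8 RPKM). The membrane-cytoskeleton linker ezrin, Ezr, was the most abundant at 130 RPKM in the adenoma pool and 270.2 RPKM in the control pool.

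Glycerol handling genes, which act beside the aquaglyceroporins, had 11 of 12 past the filter, 2 called lower, 0 higher and a median log2 fold change of -0.22 (-0.27 length-adjusted). The 2 were Gpam, an acyltransferase of glycerolipid synthesis (1.75 RPKM in the adenoma pool, 5.94 RPKM in the control pool), and the glycerol kinase gene Gyk (4.91 and 13.1 RPKM). Neither was called after length adjustment, at -0.83 and -0.94. The dehydrogenase-like gene Gpd1l followed, at 15.5 RPKM in the adenoma pool and 31.4 RPKM in the control pool. The most abundant was the acyltransferase gene Agpat2, at 74.1 and 56.5 RPKM. Over all genes 11.0% were called lower and 14.0% higher, and the median was -0.02 (-0.19 length-adjusted). The glycerol list as a whole lay near these values.

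**Figure D4:**
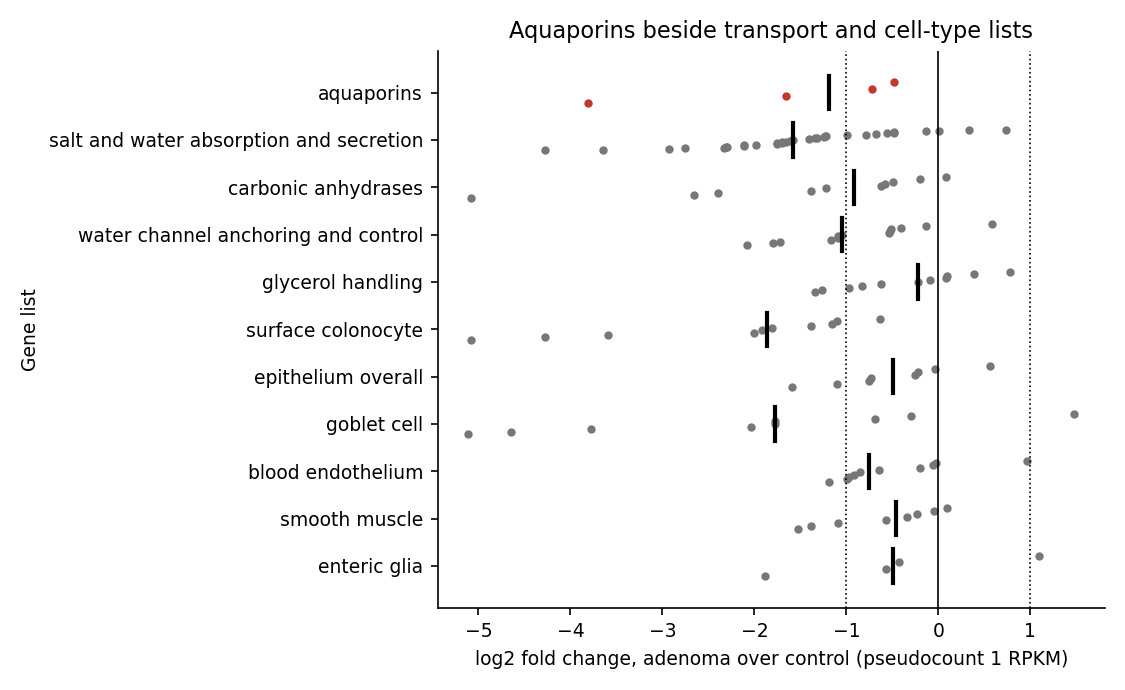
Log2 fold changes (adenoma over control, pseudocount 1 RPKM) of the genes past the filter in each list, with 1 point per gene, a thick bar at the median, and dotted lines at 2-fold. The aquaporins (top, median -1.19) spread between -3.81 and -0.48, beside the salt and water transport genes (median -1.58), the surface colonocyte markers (median -1.86) and the blood endothelium markers (median -0.75). Slc26a3 is a point in both the salt and water list and the surface colonocyte list. Car4 and Car1 are points in both the carbonic anhydrase list and the surface colonocyte list.

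Markers of the cells that carry each channel also differed between the pools, and their part in the aquaporin values was not tested. Of 10 surface colonocyte markers 9 were called lower and 0 higher, their RPKM summing to 530 in the adenoma pool and 2347 in the control pool, and none was at 0. Of 8 markers of epithelium as a whole 2 were called lower, the adhesion gene Cdh1 and the brush border gene Vil1, and 0 higher, and their log2 fold changes had a median of -0.49. After length adjustment 3 were lower, namely Cdh1 and the keratin genes Krt8 (-1.01) and Krt19 (-1.20), Vil1 was at -0.99, and the median was -0.95. The 8 markers as deposited summed to 6410 RPKM in the adenoma pool and 9644 RPKM in the control pool, and none was at 0. Most of both sums was Krt8 (2514 RPKM in the adenoma pool, 4237 RPKM in the control pool) and Krt19 (1950 and 3245 RPKM). Single markers of the list ranged from Cdh1, 3.05-fold lower in the adenoma pool, to Krt18, 1.48-fold higher. Per 100 RPKM of these epithelial markers, Aqp8 had 0.135 RPKM in the adenoma pool and 1.39 RPKM in the control pool, which is 10.3-fold lower. On the same basis Aqp4 had 0.214 and 0.469 RPKM, 2.19-fold lower, Aqp1 had 0.304 and 0.286 RPKM, and Aqp11 had 0.0537 and 0.0656 RPKM. Per 100 RPKM of surface colonocyte markers, Aqp8 had 1.63 RPKM in the adenoma pool and 5.72 RPKM in the control pool, 3.50-fold lower, while Aqp4 had 2.59 RPKM in the adenoma pool and 1.93 RPKM in the control pool. These sums rest mostly on a few abundant genes, among them Car4, Muc3, Car1 and Krt20. Of the 10 markers 3 had a greater fold difference than the 15.5-fold of Aqp8: Car4 was 35.7-fold lower, Slc26a3 22.2-fold and Slc37a2 18.4-fold, so Aqp8 lay within the range of the list. Slc26a3 is also in the salt and water list, and Car4 and Car1 are also among the carbonic anhydrases. The lists are therefore not separate observations.

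The markers of blood endothelium, a site of Aqp1, had 1 of 10 called lower (Kdr, a receptor for vascular endothelial growth factor) and 0 higher; none was at 0, and the median log2 fold change was -0.75. After length adjustment Kdr was not called, at -0.71, Plvap, a gene of fenestrated capillaries, was called lower at -1.23, and the median was -0.46. The list summed to 61.0 RPKM in the adenoma pool and 95.3 RPKM in the control pool. Per 100 RPKM of these markers Aqp1 had 32.0 RPKM in the adenoma pool and 28.9 RPKM in the control pool. Relative to 3 of the other 15 marker lists, epithelium among them, the levels of Aqp1 in the pools lay closer together than relative to endothelium, so these values single out no cell type. Red cell genes, another site of Aqp1, went the other way. Of 7 listed rows 4 passed the filter and 3 were called higher, the haemoglobin genes Hba-a1, Hba-a2 and Hbb-b1, which are near-identical or closely related copies. After length adjustment Hba-a1 and Hba-a2 were not called, at 0.57 and 0.29, and Hbb-b1 had no length for it. The list summed to 335 RPKM in the adenoma pool and 112 RPKM in the control pool, with the membrane exchanger Slc4a1 listed at 0 in the adenoma pool and Epb4.2 at 0 in the control pool.

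Enteric glia are another known site of Aqp4. Of 6 glial markers 4 passed the filter, with 1 called higher (Fabp7) and 1 lower (Erbb3), and the list summed to 9.25 RPKM in the adenoma pool and 27.9 RPKM in the control pool. Fabp7 stood at 1.23 RPKM in the adenoma pool and 0.0444 RPKM in the control pool, 27.6-fold higher (5.12 to 736). At such low levels the pseudocount of 1 RPKM shrinks its log2 value. After length adjustment Fabp7 was no longer called, at 0.10, and 1 gene of the list, Erbb3, was lower. Most of the sum was Erbb3, which epithelium also expresses, at 5.62 RPKM in the adenoma pool and 23.4 RPKM in the control pool. The defining glial genes were low in both pools, with Gfap at 0.932 and 0.884 RPKM and Sox10 at 0.222 and 0.979 RPKM, below the 13.7 and 45.2 RPKM of Aqp4.

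Aqp5 is also a gene of pyloric stomach glands. Of 9 gastric and pyloric gland genes 2 passed the filter, and both were called higher: Tff1, a secreted mucosal peptide, at 2.02 RPKM in the adenoma pool and 0.0708 RPKM in the control pool, and the gastrokine Gkn3, at 1.84 and 0.128 RPKM. As ratios of RPKM, Tff1 was 28.5-fold higher (6.25 to 423) and Gkn3 14.4-fold higher (4.83 to 66.6). The pseudocount of 1 RPKM shrinks log2 values at such low levels, and neither was called after length adjustment, at 0.48 and 0.33. Whether transcript length accounts for the difference was not tested. The list summed to 4.73 RPKM in the adenoma pool and 0.221 RPKM in the control pool. Muc5ac, Gkn2 and Pgc were listed at 0 in the adenoma pool, and Tff2, Gkn1, Gkn2, Cldn18 and Pgc at 0 in the control pool.

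Fat cells and leukocytes are known sites of Aqp7 and Aqp9. Adipocyte markers had 4 of 7 past the filter, 2 called lower and 0 higher, and summed to 61.7 RPKM in the adenoma pool and 48.4 RPKM in the control pool, most of it from Fabp4, which endothelium and macrophages also express. Plin1 and Lep were listed at 0 in the adenoma pool, and Adipoq was at 0.563 RPKM in the adenoma pool and 1.84 RPKM in the control pool. After length adjustment 3 were lower. Neutrophil markers had 4 of 8 past the filter, 3 called higher and 0 lower, and summed to 390 RPKM in the adenoma pool and 115 RPKM in the control pool, with Mpo and Elane at 0 in the control pool. Nearly all of the control sum was Ly6g, which went the other way, at 83.2 RPKM in the adenoma pool and 113 RPKM in the control pool, and was called lower after length adjustment, at -1.36. Without Ly6g, a choice made after seeing the data, the sums were 306 RPKM in the adenoma pool and 2.35 RPKM in the control pool. Most of the 306 RPKM came from S100a8 and S100a9, the latter at 174.8 RPKM in the adenoma pool and 0.693 RPKM in the control pool. Csf3r (0.950 and 0.394 RPKM) and Cxcr2 (0.0307 and 0.0389 RPKM) were below 1 RPKM in both pools. In the adenoma pool Mpo stood at 0.107 RPKM and Elane at 0.0328 RPKM. S100a8 reached 120.5 RPKM in the adenoma pool and 0.777 RPKM in the control pool, while Aqp9 had about 2 and 8.01 reads.

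Over both pools, the gene whose pair of levels lay closest to that of Aqp8 was Slc26a3. The measure was the Euclidean distance in log2(RPKM + 1) over 2 libraries, among 11841 named mRNA genes past the filter. Slc26a3 lay at a distance of 0.38, followed by the vitamin D receptor gene Vdr at 0.68 (10.4 RPKM in the adenoma pool, 86.2 RPKM in the control pool) and the semaphorin gene Sema4g at 0.71 (12.6 and 94.1 RPKM). Closest to Aqp1 were G6pc3, Vps4a and Myo1c, all at a distance of 0.03. With 2 libraries this measure says only that both levels were alike.

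**Figure D5:**
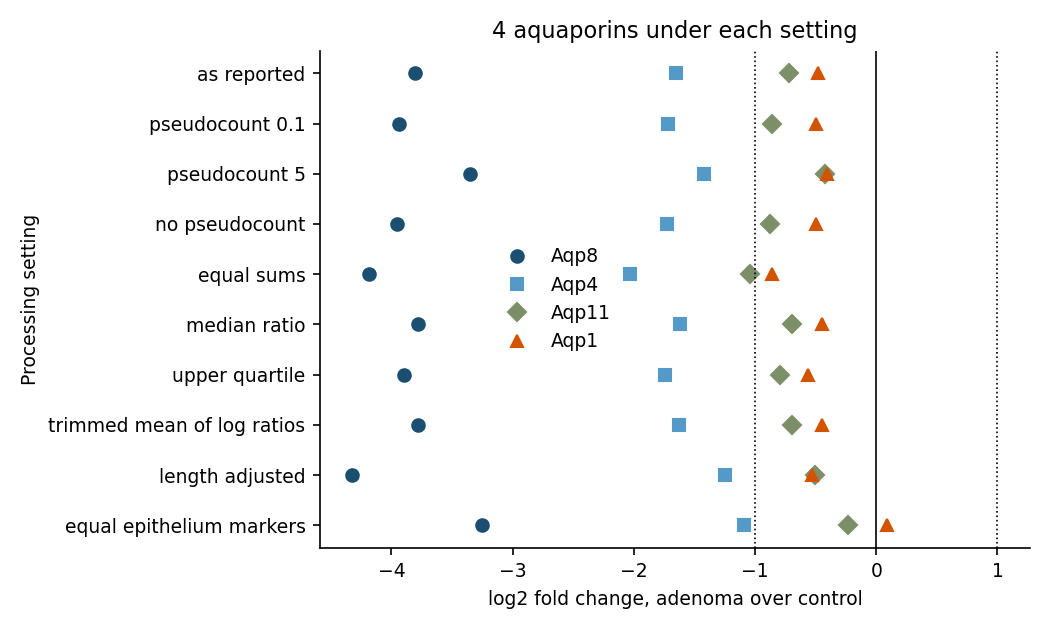
Log2 fold change (adenoma over control) of the 4 expressed aquaporins as reported and under each of 9 other settings, with dotted lines at 2-fold. Aqp8 stays between -4.32 and -3.25 and Aqp4 between -2.03 and -1.09, both beyond the 2-fold line throughout, while Aqp11 crosses it at equal sums and Aqp1 reaches 0.09 with equal epithelial markers.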

How the data were processed

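RNA was extracted with Trizol and 1 library was sequenced from each of 2 pools of 6 individuals. The labels name an Illumina protocol for library preparation and the series text names a Proton sequencer. The authors deposited 1 table of RPKM values with symbols and gene types, per the file headers. The submitters' processing notes name the build GRCh37, a human assembly, although the symbols are those of mouse. Aligner, read counting and annotation are not given in the sources used here.

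Read totals were recovered from short RNA genes (microRNAs and small nucleolar RNAs) by their RefSeq length, where 1 read is worth the same product of RPKM and length. With them 144 of 200 short genes above 0 in the adenoma pool (72.0%) and 129 of 182 in the control pool (70.9%) were whole to within 0.01 read. Approximate reads used the longest coding GENCODE M21 transcript, available for 93.8% of the 16517 genes tested (15492 genes). Intervals are exact (Clopper-Pearson) binomial 95% intervals on those reads and depend on these lengths, which may not be those of the authors. No interval or p-value covers differences between animals or libraries. The length adjustment used the same lengths and removed the trend of mRNA genes, interpolated between the medians of 20 length bins. It was not repeated with the shortest coding transcripts. That of Aqp11 has 896 bases, against 3737 for its longest. Values were computed with Python 3.11.15, pandas 2.3.3 and scipy 1.17.1. The code was run on simulated reads with known lengths and totals and no differences between animals. That run checks the code and not the values reported here.

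The aquaporins and the 4 pathway and 16 marker lists were chosen with earlier results of these data known. Of 219 listed symbols 1 was found through an older symbol and 1 was not found. All 8 members and the other family genes were named. In each pathway list the 3 genes with the largest absolute log2 fold change and the most abundant were named, along with some others picked after their values were seen. Promoter sequences came from RefSeq on GRCm38.p6, where 7 of the 8 members matched.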

Additional observations from a re-analysis of the deposited data

How the results depend on the processing

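The call of Aqp8 and Aqp4 as lower held under all 9 other settings run for single genes, and no value of a called gene changed sign. The count of aquaporins at least 2-fold lower was 1 (Aqp8) at a 4-fold threshold, and 3 both at a 1.5-fold threshold and at equal sums. The count at least 2-fold higher was 0 under every setting, but Aqp5 lay below the filter and could not enter it. Only the run with no filter took Aqp5 in, and there the pseudocount of 1 RPKM held it at 0.34. Its log2 fold change was 1.19 with a pseudocount of 0.1 RPKM and 1.71 with no pseudocount, from few reads. The median log2 fold change moved from -1.19 to -0.92 with a pseudocount of 5 RPKM, -0.29 with no filter, -1.54 at equal sums, -0.89 with length adjustment and -0.66 with equal epithelial markers. The ratio of the summed RPKM, 0.214 in the adenoma pool over the control pool, moved to 0.163 at equal sums, 0.201 with the upper quartile, 0.323 with equal epithelial markers and 0.468 without Aqp8. Scaling by the median ratio or by a trimmed mean of log ratios left these values within counting error. The epithelial scaling, the intervals from the shortest transcript and the ratio without a pseudocount were chosen after seeing the data. Over all genes, the number called higher and lower was 1309 and 654 with a pseudocount of 5 RPKM, 3000 and 2858 with 0.1 RPKM, 1274 and 3347 at equal sums, 793 and 1701 with length adjustment, and 1346 and 1693 among mRNA genes alone. No paired analysis was possible because each group holds 1 library. Below about 1 RPKM the depth of these libraries limits what can be said of Aqp3, Aqp5, Aqp7 and Aqp9.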

Other observations

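Other cell types in the pools differed as well, given here as values. Goblet cell markers had 6 of 9 called lower and 1 higher (Spink4), summing to 5340 RPKM in the adenoma pool and 10431 RPKM in the control pool; after length adjustment 7 were lower and Spink4 was at 0.43. Paneth cell markers had 5 of 6 called higher and 1 lower (Ang4), at 1301 and 226 RPKM in sum. Macrophage markers had 1 of 8 called higher and 1 lower, at 1145 and 647 RPKM, and none of the 8 was called after length adjustment. Smooth muscle markers had 3 of 8 called lower, at 1790.2 and 2178 RPKM, of which 0 remained after length adjustment, and enteric neuron markers 1 of 6 past the filter called lower, at 22.7 and 33.7 RPKM. Distal colon position genes had 1 of 6 called higher (Hoxd12) and 0 lower, at 310.2 and 363 RPKM. Small intestinal enterocyte genes had 3 of 8 past the filter and 1 called lower (Apob), at 43.6 and 57.3 RPKM. After length adjustment Apob was at -0.87, and Fabp2 and Fabp6 were lower instead. Of 9 pancreatic acinar genes 2 passed the filter and 0 were called (1 lower after length adjustment, Cela2a), and Cpa1, Amy2a5 and Ctrb1 were listed at 0 in both pools, while the elastase gene Cela1 stood at 291 and 321 RPKM.

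Aqp3 is known from the literature as a prominent channel of colonic epithelium, yet in this table it stood at 0.0872 RPKM in the adenoma pool and 0.115 RPKM in the control pool, while the epithelial gene Epcam stood at 646 and 752 RPKM. The cause was not tested. The pseudogene Aqp10-ps had values of 0.0652 RPKM in the adenoma pool and 0.0108 RPKM in the control pool, under the level of 3 reads in both.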
